A study of Mus musculus with 16 samples.

Results

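Messenger RNA of 9 pituitary genes was followed in 16 primary rhabdoid tumors of mice. The 9 genes were 7 hormone genes (Gh, Prl, Pomc, Cga, Lhb, Fshb and Tshb) and 2 genes of lineage transcription factors (Pitx1 and Pou1f1), out of 24982 genes in the count table and 24951 in the table of TPM (read counts scaled for transcript length and then to a total of 1000000 per library). They were chosen by their TPM and counts in the intracranial tumors lying outside the brain, where hormone mRNA had been seen, so their levels in those tumors are given as a description, with no test.

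All 16 mice carried Smarcb1flox/flox;R26-CreERT2 on a mixed 129/SV and C57BL/6 background and had received tamoxifen as embryos, at E6, E7 or E8. The R26 promoter is active in nearly every cell type, so that loss of Smarcb1, a subunit of the SWI/SNF chromatin remodeling complex, was not directed to the pituitary or to any other lineage. No sample of normal tissue was among the 16 libraries, and every group carried the deletion and the tamoxifen. The labels place 6 tumors inside the skull but outside the central nervous system (intracranial extra-CNS, mice 43989C, 43992A, 29941C, 29225D, R26P170 and R26P115), 5 in the brain (intra-CNS, mice 29048, 38594A, 29050A, R26P98 and R26P87) and 5 outside the skull (extracranial, mouse 43825B in the back, 43987A and R26P123 in the jaw, 43990A in the nose and 43998A in the mouth). Intracranial extra-CNS tumors were taken at 52 to 170 days of age, with tamoxifen at E8 in 4 mice, E7 in 1 and E6 in 1. Intra-CNS tumors were taken at 30 to 180 days, all with tamoxifen at E6. Extracranial tumors were taken at 80 to 210 days, with tamoxifen at E8 in 4 mice and E6 in 1. The study places the intra-CNS tumors in its Shh subgroup and all others in its Myc subgroup. Each tumor came from a different mouse and gave 1 library. The labels give 3 females, 2 males and 1 mouse without a sex for the intracranial extra-CNS tumors. The intra-CNS tumors came from 2 females and 3 mice without a given sex, and the extracranial ones from 4 females and 1 male.

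Libraries held 17889968 to 110177889 counts, and a floor of 3 counts was used, below which a gene was taken as not detectable at this depth. Smarcb1 mRNA, which can also come from stromal cells, was present in every tumor at 3.99 to 58.1 TPM. Mouse names follow 2 schemes, and the schemes were treated as a possible batch: 11 mice have a number and 5 a name starting with R26P. The tumor of R26P115 stood apart by its choroid plexus genes, with Ttr alone at 199516 TPM of the 1000000 in the library, and the tumor of 29048 by genes of choroid plexus, oligodendrocytes and neurons. In bulk libraries, fewer cells of a type and less RNA per cell cannot be told apart. The tumors were macrodissected from frozen sections, so mRNA of tumor cells and mRNA of pituitary or other tissue in the same section cannot be told apart either.

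In the anterior pituitary, each hormone is made by its own endocrine cell type. Somatotrophs make growth hormone (Gh), lactotrophs prolactin (Prl), and corticotrophs proopiomelanocortin (Pomc), the precursor of adrenocorticotropin. Thyrotrophs and gonadotrophs share the alpha subunit Cga, which pairs with Tshb in thyrotropin, Lhb in luteinizing hormone and Fshb in follicle-stimulating hormone. PITX1 is present early in the oral ectoderm that forms the gland and acts at the promoters of most of these hormone genes. It is also a factor of the first branchial arch and the hindlimb. POU1F1 (PIT-1) is needed for somatotrophs, lactotrophs and thyrotrophs and binds the Gh, Prl and Tshb genes directly, whereas Pomc is driven by TBX19 (T-PIT) together with PITX1.

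The genes lie apart in the genome. On GRCm38, Gh is at chr11:106300271-106301865 (minus strand), Prl at chr13:27057570-27065205 (plus), Pomc at chr12:3954951-3960642 (plus), Cga at chr4:34893779-34907370 (plus) and Lhb at chr7:45420820-45421897 (plus). Fshb is at chr2:107056140-107059656 (minus), Tshb at chr3:102775465-102782718 (minus), Pitx1 at chr13:55825051-55836192 (minus) and Pou1f1 at chr16:65520511-65535005 (plus). Counts are given per gene, as counted with STAR. Tshb lies wholly within Tspan2 on the opposite strand, and Lhb shares 138 bases with Ruvbl2 on the opposite strand. Gene models of the annotation also overlap Pou1f1 (Gm49631, 5661 bases), Pitx1 (Gm47071), Cga (Platr9, 1247 bases) and Prl (Gm47888, 453 bases) on the opposite strand, and Pitx1 on the same strand (Gm28760). Whether the counting used the strand is not given in the sources used here, so small counts of these 6 genes are uncertain.

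The RefSeq table of gene starts (GRCm38.p6) had entries for 7 of the 9 genes. The 250 bases before the start are printed for Prl and Pomc, which were high in the same tumors, for Cga, which was high in 1 tumor, and for Pou1f1. Capitals mark matches to ATGNATA or its reverse, a short form of the POU1F1 recognition sequence.
Prl: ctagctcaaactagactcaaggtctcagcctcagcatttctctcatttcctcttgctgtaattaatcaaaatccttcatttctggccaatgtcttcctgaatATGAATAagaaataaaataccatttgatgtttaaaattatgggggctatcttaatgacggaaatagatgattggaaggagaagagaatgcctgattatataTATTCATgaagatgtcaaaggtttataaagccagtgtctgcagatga
Pomc: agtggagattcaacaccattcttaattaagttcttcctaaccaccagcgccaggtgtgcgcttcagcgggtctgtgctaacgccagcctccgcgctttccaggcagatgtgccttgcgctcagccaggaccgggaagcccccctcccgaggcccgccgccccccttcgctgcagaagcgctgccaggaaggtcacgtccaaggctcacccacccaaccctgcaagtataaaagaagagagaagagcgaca
Cga: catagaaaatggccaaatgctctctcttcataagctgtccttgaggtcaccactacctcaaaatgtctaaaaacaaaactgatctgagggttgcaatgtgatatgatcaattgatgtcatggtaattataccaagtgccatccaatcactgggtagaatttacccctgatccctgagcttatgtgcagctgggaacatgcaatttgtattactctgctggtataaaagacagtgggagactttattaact
Pou1f1: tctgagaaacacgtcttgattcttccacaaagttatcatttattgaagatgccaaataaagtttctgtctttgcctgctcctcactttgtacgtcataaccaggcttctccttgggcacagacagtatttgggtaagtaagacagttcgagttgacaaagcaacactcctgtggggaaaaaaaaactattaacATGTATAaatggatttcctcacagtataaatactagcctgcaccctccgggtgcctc
These windows are chr13:27057320-27057569, chr12:3954695-3954944, chr4:34893529-34893778 and chr16:65520262-65520511, all on the plus strand. Prl held 2 matches, beginning at -148 and -47 from the start, and Pou1f1 held 1, at -57, in the window printed and none in that of its second listed start. The windows of Pomc, Cga, Fshb, Lhb and Tshb held none. The same letters occurred, on either strand, in 7.92% of the 32851 windows of this length in the table. TAATCC, a form bound by PITX1, or its reverse was in none of the 7 genes' windows and in 6.25% of all windows. TAAGCC or its reverse was in the Lhb window alone, at -198, and in 8.20% of all windows. A match is a stretch of letters and not a site shown to be bound.

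Growth hormone mRNA was high in 2 of the 6 intracranial extra-CNS tumors. Gh stood at 175 TPM (1306 counts) in the tumor of 43989C and 160 TPM (1820 counts) in that of R26P170. In the other 4 tumors of this group it was 2.32 TPM (23 counts) in R26P115, 1.40 TPM (61 counts) in 29941C, 0.283 TPM (7 counts) in 29225D and 0.253 TPM (2 counts) in 43992A. The 2 high tumors thus lay far above the rest of their own group, which spanned values close to those of the other groups. Among the intra-CNS tumors, Gh was 4.10 TPM (95 counts) in 29050A and 0.735 TPM (6 counts) in R26P87, and the other 3 had 0 to 2 counts. No extracranial tumor exceeded 3 counts. The group mean of 56.6 TPM ± 86.2 (SD, n = 6) therefore described none of the 6 intracranial extra-CNS tumors.

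**Figure D1:**
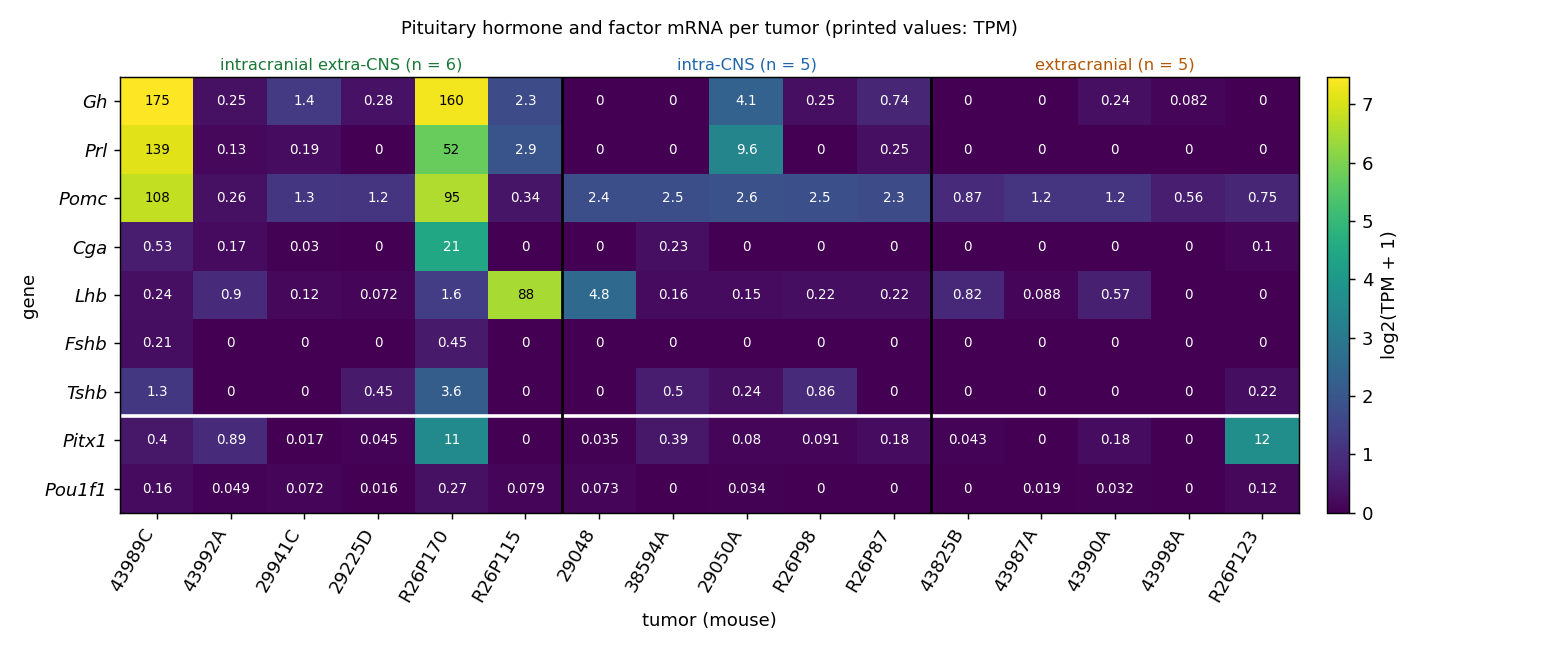
Levels of the 9 genes (rows, hormone genes above the white line) in the 16 tumors (columns, by group), colored by log2(TPM + 1) with the TPM printed in each cell. Gh, Prl and Pomc are high together in 43989C and R26P170, Lhb in R26P115, Cga in R26P170, and Pitx1 in R26P170 and in the extracranial tumor R26P123, whereas Pou1f1 is at most 0.274 TPM.

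Prolactin followed growth hormone in the same tumors. Prl was 139 TPM (1027 counts) in 43989C and 52.1 TPM (587 counts) in R26P170, followed by 2.85 TPM (28 counts) in R26P115 and 0.186 TPM (8 counts) in 29941C, with 1 count in 43992A and 0 in 29225D. One intra-CNS tumor, 29050A, had 9.60 TPM (220 counts), and the other 4 had 0 to 2 counts. All 5 extracranial tumors had 0 counts, and 3 counts, the floor, would be 0.0590 to 0.138 CPM (counts per 1000000 counts of the library) at their depths. The balance of the 2 hormones differed between tumors beyond counting error. Of the counts of Gh and Prl together, Prl made up 44.0% in 43989C (95% Wilson interval 42.0 to 46.0), 24.4% in R26P170 (22.7 to 26.1), 69.8% in 29050A (64.6 to 74.6), 54.9% in R26P115 (41.4 to 67.7) and 11.6% in 29941C (5.99 to 21.2). These intervals cover counting error only, and each tumor is 1 library. The mice of 43989C, 29050A and R26P115 were female and that of 29941C was male, and no sex is given for R26P170. The part of sex in this balance was not tested.

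Pomc was the third hormone gene with a high level in these tumors, and the one present at a low level nearly everywhere. It stood at 108 TPM (1176 counts) in 43989C and 94.7 TPM (1582 counts) in R26P170. In the other 4 intracranial extra-CNS tumors it was 1.27 TPM in 29941C, 1.16 TPM in 29225D, 0.344 TPM in R26P115 and 0.259 TPM in 43992A. These 4 values lie below every intra-CNS tumor. The 5 intra-CNS tumors were close to each other, at 2.44 TPM in 29048, 2.49 in 38594A, 2.59 in 29050A, 2.51 in R26P98 and 2.25 in R26P87. The extracranial tumors ranged from 0.558 TPM in 43998A to 1.18 TPM in 43987A. In the fit of intracranial extra-CNS against extracranial tumors, the log2 fold change of Pomc was 5.25 ± 1.70 (SE), and against intra-CNS tumors it was 4.32 ± 1.60 (SE). These values were set by the 2 high tumors and are given without a test.

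The subunits of the glycoprotein hormones were divided between tumors. Cga reached 21.0 TPM (183 counts) in R26P170 and was at or below 3 counts in the other 15 tumors, 43989C included, where 3 counts were found. Tshb was 3.57 TPM (29 counts) in R26P170, 1.32 TPM (7 counts) in 43989C and 0.453 TPM (8 counts) in 29225D. It had 4 or 5 counts in 3 intra-CNS tumors and at most 2 elsewhere. Tspan2, which spans Tshb on the other strand, was at 1.64 TPM in R26P170, 49.8 TPM in 43989C and 210 TPM in 29048, a tumor in which Tshb had 0 counts. Fshb was found in R26P170 (10 counts) and 43989C (3 counts) and had 0 counts in the other 14 tumors. R26P170 was thus the 1 tumor with more than 3 counts of Cga and of Fshb, and its Lhb was 1.56 TPM (10 counts).

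Lhb was high elsewhere than the other hormone genes. It stood at 88.0 TPM (492 counts) in R26P115, where Gh, Prl and Pomc were low and Cga, Fshb and Tshb had 0 counts. The next value was 4.84 TPM (29 counts) in the intra-CNS tumor of 29048, and no tumor past R26P115, 29048 and R26P170 had more than 4 counts. In the extracranial tumors Lhb was 0 to 0.824 TPM. The 2 tumors highest in Lhb were the 2 with choroid plexus genes: Ttr, Folr1, Kcnj13 and Clic6 summed to 202680 TPM in R26P115 and 4610 TPM in 29048, against 0.0560 to 9.13 TPM in the other 14. Gnrhr, the receptor of gonadotropin-releasing hormone and a marker of gonadotrophs, had no read in either tumor. Of the pituitary lineage factors, Nr5a1 had 1 count in R26P115 and 9 in 29048. Gata2 was 19.3 and 7.68 TPM in these tumors, against 0.816 to 70.5 TPM elsewhere. Ruvbl2, which overlaps the Lhb gene on the other strand, was lowest in R26P115, at 34.1 TPM, and 67.4 to 153 TPM elsewhere. Whether choroid plexus tissue had a part in the Lhb level was not tested.

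**Figure D2:**
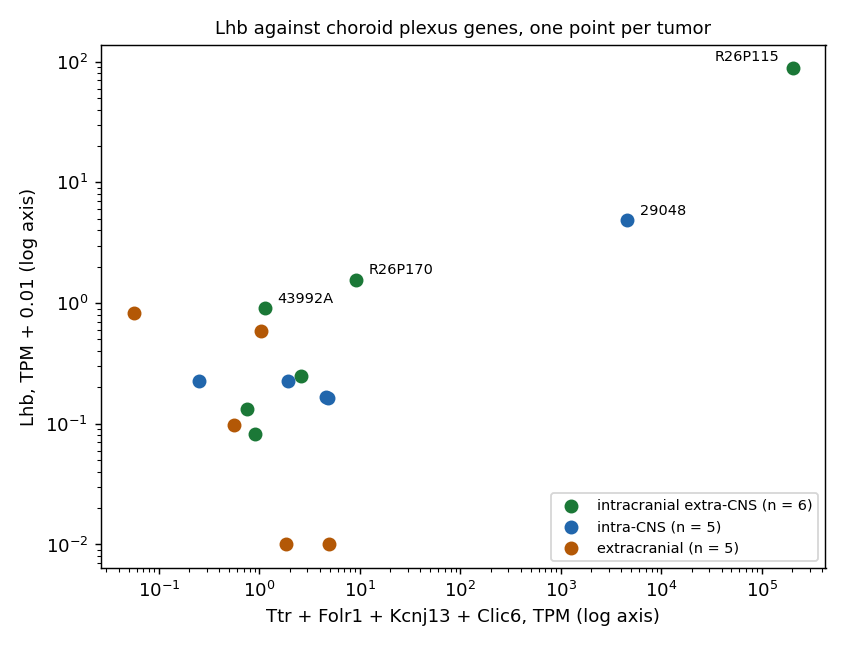
Lhb (y, TPM + 0.01) against the sum of 4 choroid plexus genes (x, TPM), both on log axes, 1 point per tumor colored by group. R26P115 and 29048 stand apart on both axes, and the other 14 tumors show no more than 1.56 TPM of Lhb.

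Pitx1 did not follow the hormones from tumor to tumor, and Pou1f1 was too near the floor to tell. Pitx1 was 10.7 TPM (331 counts) in R26P170 and 0.396 TPM (8 counts) in 43989C, although Gh, Prl and Pomc were high in both. It was 0.887 TPM (19 counts) in 43992A, and 0.0447 TPM or less in 29225D, 29941C and R26P115. The intra-CNS tumors had 0.0347 to 0.395 TPM. The highest level of all was 11.8 TPM (406 counts) in the extracranial tumor of R26P123, in the jaw, in which Gh and Prl had 0 counts. The other 4 extracranial tumors, among them the second jaw tumor, 43987A, had 0 to 0.179 TPM. The 2 tumors with the most Pitx1 were also the 2 with the most of the basal keratins: Krt5 and Krt14 were 232 and 599 TPM in R26P123 and 5.40 and 6.41 TPM in R26P170, against at most 0.511 and 0.594 TPM in the other 14 tumors. The other genes of the epithelium list were far below their highest values in these 2 tumors. In R26P123 and R26P170, Krt8 was 22.3 and 43.1 TPM and Krt18 55.6 and 59.8 TPM, against up to 1135 and 2143 TPM elsewhere. Epcam was 13.1 and 52.9 TPM and Cdh1 18.4 and 14.4 TPM, against up to 523 and 160 TPM. The part of epithelium in the Pitx1 level was not tested. Pou1f1 was near the floor in every tumor, with 8 counts in R26P170 (0.274 TPM), 8 counts in 29941C (0.0718 TPM), 4 in R26P123 and 3 or fewer in the other 13. In 43989C, where Gh was 175 TPM, Pou1f1 had 3 counts (0.157 TPM), and R26P170 and 43989C had its 2 highest TPM values.

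Per tumor, hormone mRNA was compared with factor mRNA as the summed TPM of the 7 hormone genes over that of Pitx1 and Pou1f1. The hormone sum was 425 TPM in 43989C, 333 TPM in R26P170 and 93.5 TPM in R26P115, and 1.70 to 3.01 TPM in the other 3 intracranial extra-CNS tumors. The intra-CNS tumors had 3.38 to 16.7 TPM and the extracranial tumors 0.640 to 1.97 TPM. The ratio was 767 in 43989C and 30.3 in R26P170, as their hormone sums differed little and their factor sums, 0.553 and 11.0 TPM, differed more. It was 1189 in R26P115, with 94.1% of the sum being Lhb, 33.9 in 29941C, 32.5 in 29225D and 1.82 in 43992A. The ratio ranged from 8.57 to 147 in the intra-CNS tumors and from 0.0902 in R26P123 to 65.7 in 43987A in the extracranial ones. No ratio exists for 43998A, which had no factor count. The medians were 33.2, 42.3 and 24.5 in intracranial extra-CNS, intra-CNS and extracranial tumors, and the ranges of the 3 groups overlapped. Outside R26P170, R26P123, 43992A and 38594A, the factor sums rest on 11 counts or fewer, so most of these ratios have a poorly measured denominator.

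**Figure D3:**
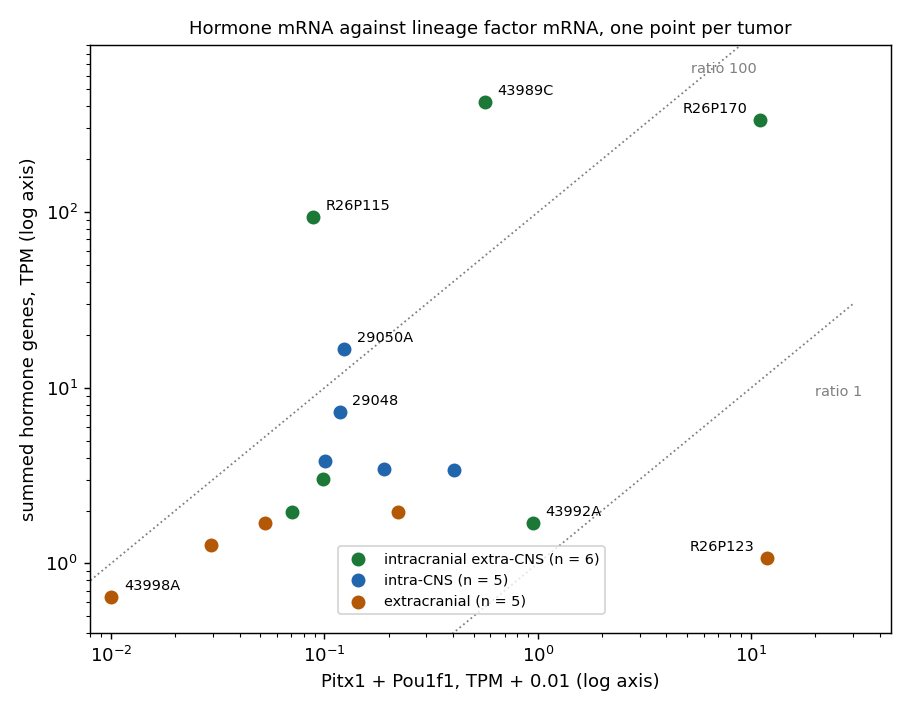
Summed TPM of the 7 hormone genes (y) against the sum of Pitx1 and Pou1f1 (x, TPM + 0.01), both on log axes, 1 point per tumor colored by group, with dotted lines at ratios of 1 and 100. 43989C and R26P170 have like hormone sums (425 and 333 TPM) at factor sums of 0.553 and 11.0 TPM, and R26P123 has a high factor sum with 1.07 TPM of hormone mRNA.

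The makeup of the hormone mRNA was alike in the 2 high tumors for Gh and Pomc. Gh made up 41.3% and 48.0% of the hormone sum in 43989C and R26P170, and Pomc 25.3% and 28.4%. Prl made up 32.8% and 15.6%, Cga 0.124% and 6.30%, and Tshb 0.310% and 1.07%. In the intra-CNS tumor of 29050A the order was different, with Prl at 57.5%, Gh at 24.6% and Pomc at 15.5%. In tumors with few hormone counts, such as 43992A with 11, the shares rest on single reads.

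**Figure D4:**
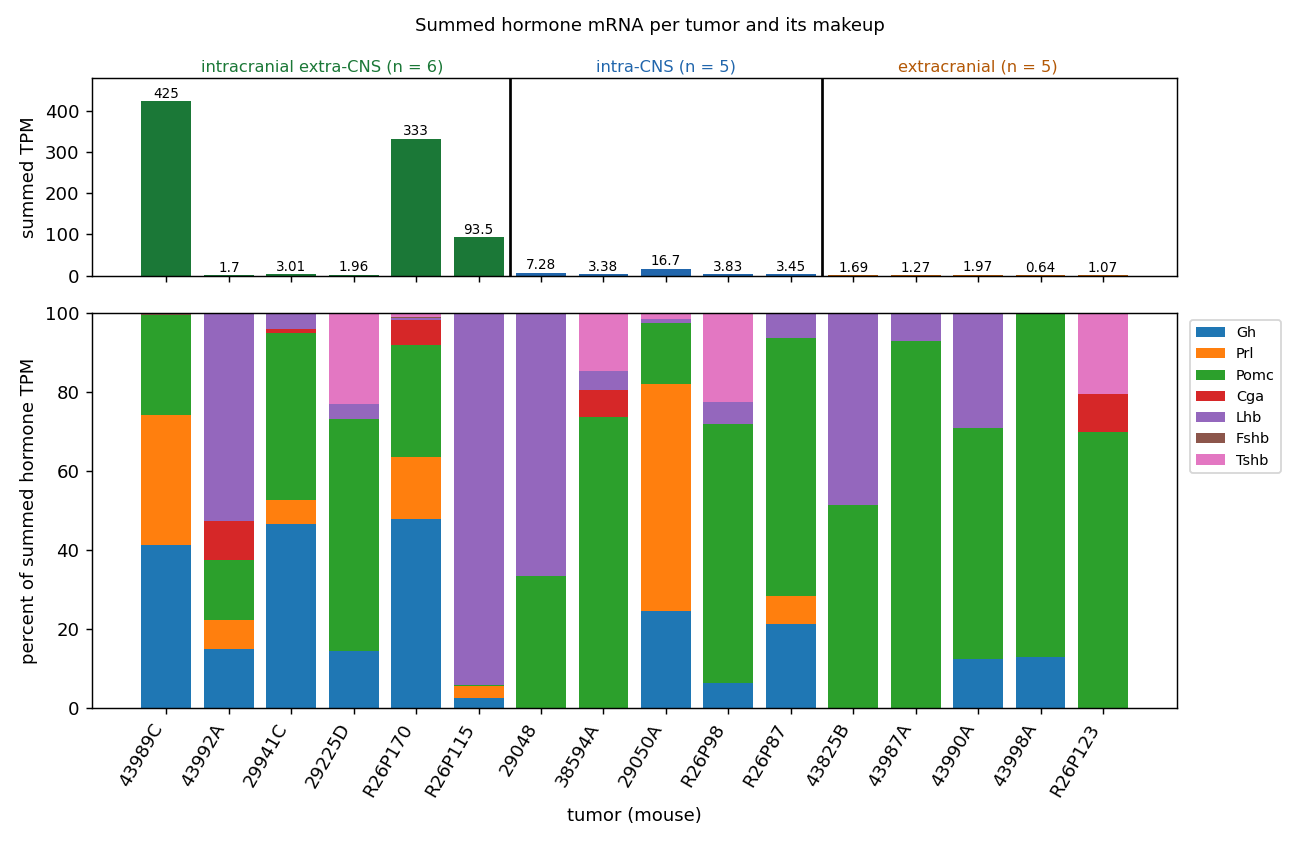
Summed hormone TPM per tumor (upper bars, colored by group) and the percent of that sum from each hormone gene (lower stacked bars). Gh, Prl and Pomc fill nearly all of the bars of 43989C and R26P170, and Lhb fills 94.1% of that of R26P115, while bars of tumors with low sums rest on few counts.

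The question whether tumors of the brain and of sites outside the skull differ in these genes was tested, as neither group chose the members. In edgeR's quasi-likelihood test of 5 intra-CNS against 5 extracranial tumors, with Benjamini-Hochberg adjustment over 21458 genes, none of the 8 members with a count passed an adjusted p of 0.05 with a log2 fold change beyond 1, against 26.2% of all genes tested. At an unadjusted p under 0.05 there were 2 members, Prl and Pomc, against 44.5% of all genes, and DESeq2 called 0. Fshb had no count. Pomc had a log2 fold change of 0.94 ± 0.41 (SE) and an adjusted p of 0.101, with all 5 intra-CNS tumors above all 5 extracranial tumors; among all genes, 22.2% were separated in this direction. The fold of Pomc was close in every fit run, but its adjusted p ranged from 0.00121 with DESeq2 to 0.601 with all 16 tumors in one edgeR fit. Pitx1 had a log2 fold change of -4.36 ± 1.99 (SE) and an adjusted p of 0.116 in the same edgeR test. It rested on the tumor of R26P123, without which the log2 fold change was 1.02. Gh, with an adjusted p of 0.134, and Prl, with 0.101, rested on 29050A, which held 95 of the 103 counts of Gh and 220 of the 222 counts of Prl in the intra-CNS group. Apart from Pomc, each of these members had 12 counts or fewer in at least 9 of the 10 tumors, so that a difference was not detectable at this depth unless it was large.

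Of 16 other factors of the pituitary lineage, 9 were under 1 TPM in both hormone-high tumors (Lhx4, Hesx1, Tbx19, Neurod1, Neurod4, Nr5a1, Otx2, Pax7 and Insm1). The other 7 reached more in 1 or both, and those described here were picked after their values were seen. Lhx3, needed for the pouch from which the gland forms, was 16.6 TPM in R26P170 and 0.230 TPM or less in each of the other 15 tumors, 43989C included (0.153 TPM). Six3 was 25.9 TPM in R26P170 and 0.297 TPM in 43989C. It was also high in tumors with little hormone mRNA, at 42.5 TPM in R26P87, 24.8 in 29048, 22.6 in 38594A and 13.0 in 29941C. Six6 was 2.98 TPM in R26P170, 0 in 43989C, and 6.71 and 9.24 TPM in 38594A and 43990A. Foxl2, a factor of gonadotrophs and thyrotrophs, was 21.4 TPM in 43989C and 9.44 TPM in R26P170, the 2 highest values, and 0 to 5.73 TPM elsewhere. Tbx19, the corticotroph factor that drives Pomc, was 0.182 TPM in 43989C and 0.119 TPM in R26P170.

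Tbx19 was higher in the intra-CNS tumors than in either other group. It stood at 33.4 TPM in R26P87, 18.5 in R26P98, 2.11 in 29050A, 1.48 in 38594A and 0.191 in 29048, against at most 0.182 TPM (4 counts) in any other tumor and 1 count in all extracranial tumors together. In edgeR's quasi-likelihood test its log2 fold change was 9.92 ± 1.78 (SE) over extracranial tumors (adjusted p = 0.00269) and it was lower in intracranial extra-CNS than in intra-CNS tumors by a log2 fold change of -7.27 ± 1.54 (adjusted p = 0.00525). Of the 16 lineage factors, 4 rose in intra-CNS against extracranial tumors (Otx2, Tbx19, Neurod1 and Insm1), none fell and 12 did not pass, with a median log2 fold change of 2.07 against -0.02 for all genes. Of all genes tested, 13.5% rose and 12.7% fell. Against the intra-CNS tumors, the intracranial extra-CNS tumors were lower in 4 (Tbx19, Insm1, Neurod1 and Neurod4) and higher in none, where 23.0% of the 21418 genes tested passed, 11.9% higher and 11.0% lower. The median was -0.94 against 0.09. Otx2, Neurod1 and Insm1 are also factors of brain and of other neuroendocrine cells. All of these calls held when any 1 tumor was left out.

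The 3 intracranial extra-CNS tumors with the most Pcsk1, the convertase that cuts POMC to adrenocorticotropin, included the 2 with high Pomc. Pcsk1 was 467 TPM in R26P170, 208 TPM in 29941C, where Pomc was 1.27 TPM, and 193 TPM in 43989C, and 0.400 to 5.68 TPM in the other 3. Pcsk2, the second convertase, was 1.77 and 1.05 TPM in the 2 hormone-high tumors and highest in R26P115 (417 TPM). Pcsk1 was higher in intracranial extra-CNS than in intra-CNS tumors by a log2 fold change of 4.93 ± 1.54 (SE) in edgeR's quasi-likelihood test (adjusted p = 0.0343), a call that was lost on leaving out any 1 of 8 tumors (29048, 38594A, 43989C, 29050A, 29941C, R26P98, R26P170 or R26P87), with an adjusted p of at most 0.0739. It was also lost with limma on log2(TPM + 1). Of the 11 granule and processing genes, Pcsk1 was the 1 that was higher in this comparison, 3 were lower (Scg2, Scg3 and Chgb, with log2 fold changes of -4.14, -4.13 and -3.93) and 7 did not pass, where 11.9% of all genes were higher and 11.0% lower. The call of Chgb was lost on leaving out any 1 of 5 tumors (29048, 38594A, 43989C, 29941C or 29225D) and with the mouse name scheme as covariate. Of the same 11 genes, 7 rose in intra-CNS against extracranial tumors, where 13.5% of all genes rose, led by Pcsk1n with a log2 fold change of 11.46, Chgb with 8.47 and Scg3 with 7.36, and none fell. The call of Scg2, another of the 7, was lost without 38594A, 43990A or 43998A and with 43990A counted as intracranial extra-CNS, and that of Pcsk2 with all 16 tumors in one fit. Granule genes are shared by neurons and endocrine cells, and neuron genes (6) were at 106 to 3499 summed TPM in the intra-CNS tumors and 50.4 to 477 in the extracranial ones. The part of neurons in these differences was not tested. Cpe, the carboxypeptidase that trims prohormones and the highest of the list, was 7563 TPM in R26P170 and 6.48 to 3662 TPM elsewhere.

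**Figure D5:**
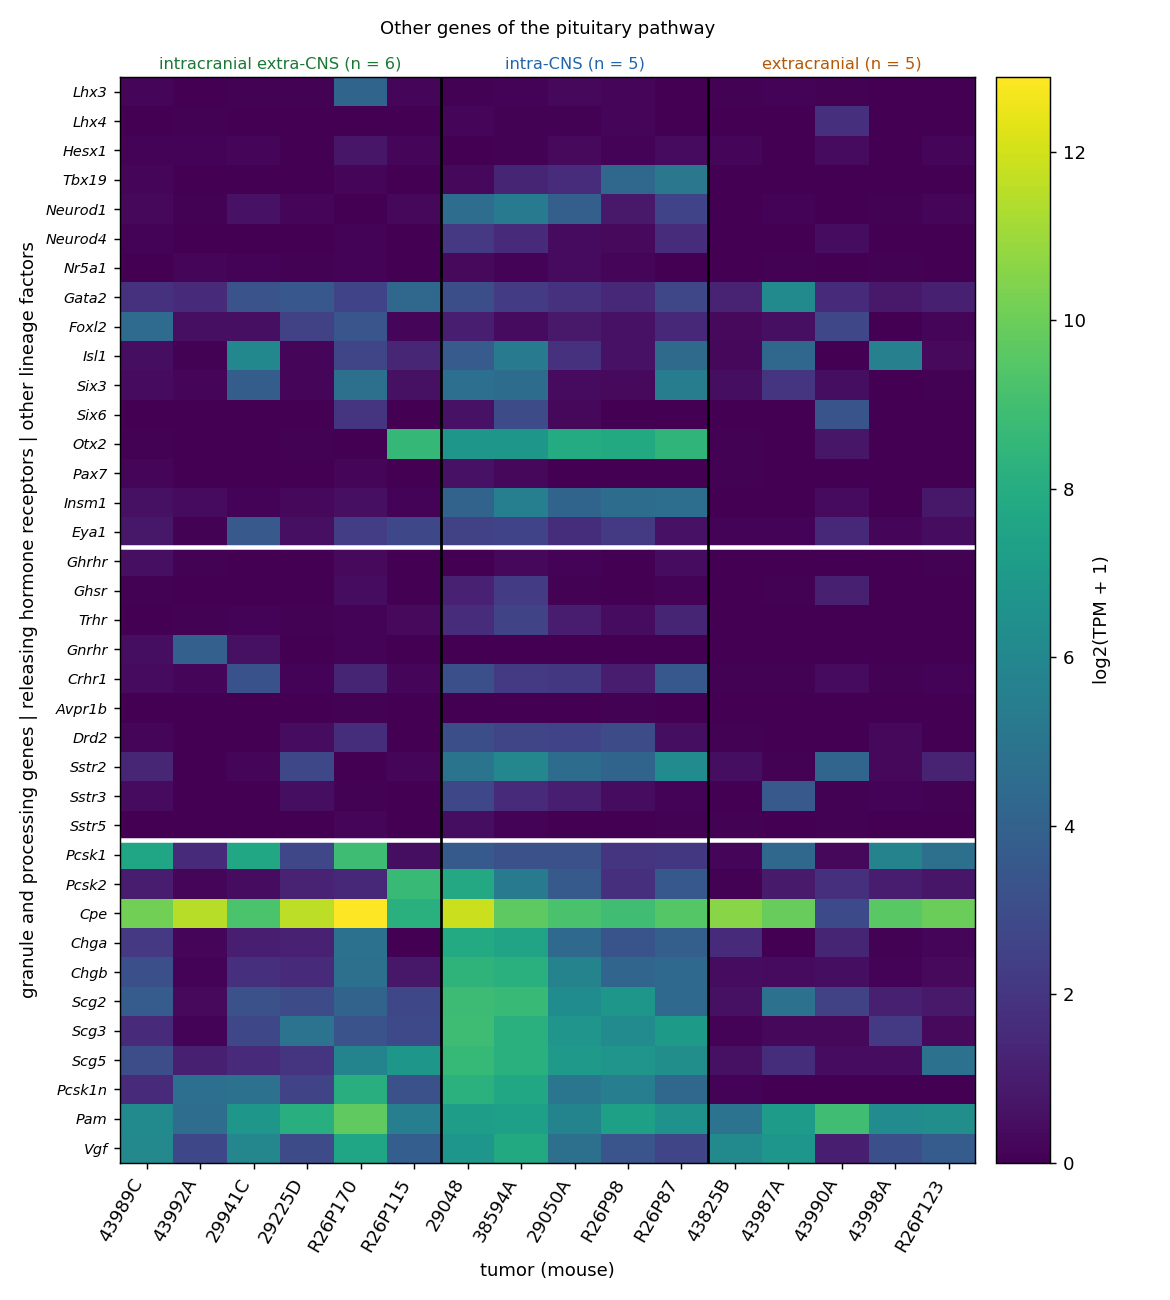
Levels (log2(TPM + 1)) of 16 other lineage factors, 10 receptors of hypothalamic and related signals and 11 granule and processing genes (rows, in 3 blocks split by white lines) in the 16 tumors (columns, by group). Lhx3 is seen in R26P170, Tbx19, Neurod1 and Insm1 in the intra-CNS tumors, Gnrhr in 43992A, and Pcsk1 in 43989C, 29941C and R26P170.

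Receptors that tune the release of these hormones were at 2.21 TPM or less in the 2 hormone-high tumors, but some ranked high there. Ghrhr, the receptor of growth hormone-releasing hormone on somatotrophs, was 0.455 TPM (6 counts) in 43989C, the highest of all 16 tumors, and 0.248 TPM (5 counts) in R26P170. The intra-CNS tumor of R26P87 had 0.346 TPM (5 counts), so this order rests on single reads. Drd2, the dopamine receptor that restrains lactotrophs, was 0.132 TPM in 43989C and 2.21 TPM in R26P170, the highest of the 11 tumors outside the brain and within the 0.401 to 7.69 TPM of the intra-CNS tumors. Crhr1, the receptor of corticotropin-releasing hormone on corticotrophs, was 0.279 and 1.49 TPM, against 8.62 TPM in 29941C and at most 0.308 TPM in the extracranial tumors. Gnrhr was 14.4 TPM in 43992A, a tumor in which Lhb had 4 counts and Fshb 0, and at most 0.475 TPM elsewhere. Of the 10 receptors, 3 rose in intra-CNS against extracranial tumors (Trhr, Drd2 and Crhr1, with log2 fold changes of 8.18, 5.93 and 5.06) and none fell, against 13.5% and 12.7% of all genes. Against intra-CNS tumors, Trhr and Sstr2 were lower in intracranial extra-CNS tumors and, where 11.0% of all genes were lower and 11.9% higher, Gnrhr, with 402 counts in 43992A, 73 in 29941C, 10 in 43989C and 4 in R26P170 against 0 in all 5 intra-CNS tumors, was called higher with an adjusted p just under the threshold. That call was lost on leaving out any 1 of 9 tumors (the 5 intra-CNS tumors, 43989C, 43992A, 29941C or R26P170), with the mouse name scheme as covariate, with DESeq2's size factors and with limma, and DESeq2 gave it no adjusted p. The call of Sstr2 was lost without 38594A, 43989C or R26P87.

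Among 13 hypothalamic and posterior pituitary peptides, Trh and Sst rose in intra-CNS against extracranial tumors, by log2 fold changes of 6.96 and 4.63, a share of the list near the 13.5% of all genes that rose. Between intracranial extra-CNS and intra-CNS tumors, Trh (-5.71) and Tac2 (-5.20) were lower in the first, where 11.0% of all genes were lower. The value of Tac2 was -0.34 without 29048. Its call was lost on leaving out any 1 of 9 of the 11 tumors (all but R26P98 and R26P87). It was also lost with the mouse name scheme as covariate and with limma, while DESeq2 gave it no adjusted p. Avp and Oxt, the hormones of the posterior lobe, were at most 4.31 and 2.20 TPM in any tumor, and in the 2 hormone-high tumors at 0.595 and 0.898 TPM in 43989C and 1.95 and 2.20 TPM in R26P170. Of 5 genes of pituitary stem and folliculostellate cells, Sox2 was lower in intracranial extra-CNS tumors (log2 fold change -4.01), and S100b was higher in intra-CNS than in extracranial tumors (6.60). These are 1 of 5 in each comparison, near the 23.0% and 26.2% of all genes called there. S100b was 229 TPM in 29048, the tumor with high oligodendrocyte genes, and 1.07 to 25.5 TPM in the other 4 intra-CNS tumors, and its log2 fold change was 4.01 without 29048. The call of Sox2 was lost with all 16 tumors in one fit and that of S100b with limma on log2(TPM + 1). Sox2 and S100b are also genes of brain cells.

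Ghr, the receptor of growth hormone, was 10.8 and 9.13 TPM in 43989C and R26P170, within the 2.53 to 40.0 TPM of the other tumors. Igf1, induced by growth hormone in many tissues, was 32.4 TPM in 43989C, the highest value, and 0.974 TPM in R26P170. Prlr was 124 TPM in R26P115, where choroid plexus genes were high, and at most 3.46 TPM elsewhere. None of the 4 growth hormone response genes passed edgeR's quasi-likelihood test in any of the 3 comparisons. At an unadjusted p under 0.05 there were 1, 1 and 0 of them in intracranial extra-CNS against extracranial, intracranial extra-CNS against intra-CNS, and intra-CNS against extracranial tumors, against 12.3%, 40.0% and 44.5% of all genes, and DESeq2 called 0 in each, against 2.30%, 27.4% and 29.8%. Of the 10 hormone receptors, 5 rose in intra-CNS against extracranial tumors (Mc3r, Prlr, Lhcgr, Tshr and Mc4r), where 13.5% of all genes rose. The call of Prlr was lost on leaving out any 1 of 7 tumors (29048, 38594A or any extracranial tumor), with the mouse name scheme as covariate, with limma, with all 16 tumors in one fit and with 43990A counted as intracranial extra-CNS. The call of Mc3r was lost with all 16 tumors in one fit, that of Mc4r with limma, and that of Lhcgr with both. Tshr kept its call under each of these and on leaving out any 1 tumor.

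Between intracranial extra-CNS and extracranial tumors, none of the 77 genes of these 8 lists (the 7 above and 8 factors of the first branchial arch and jaw) with a count passed edgeR's quasi-likelihood test, against 0.00470% of 21261 genes. At an unadjusted p under 0.05 there were 19 of them, against 12.3% of all genes, and DESeq2 called 5 (Trhr, Crhr1, Chgb, Pcsk1n and S100b), against 2.30% of all genes. Of the first arch factors, which are the setting of Pitx1 in the face, Lhx8 (262 TPM), Pax9 (108 TPM) and Barx1 (59.1 TPM) were each at their highest of all 16 tumors in R26P123, the tumor with the most Pitx1. Pax9 was nearly as high, at 106 TPM, in R26P87, where Pitx1 was 0.181 TPM. The other 5 were low in that tumor, with Msx1 at 2.17 TPM, Dlx5 at 1.81, Lhx6 at 1.39, Alx1 at 0.0570 and Hand2 at 0, against highest values elsewhere of 253, 52.3, 38.6, 521 and 439 TPM. In R26P170, Lhx8 was 156 TPM, Barx1 0 and Pax9 0.879 TPM. Lhx8, Lhx6 and Alx1 were higher in intracranial extra-CNS than in intra-CNS tumors, and Hand2 was lower, where 11.9% of all genes were higher and 11.0% lower. The calls of Lhx6 and Alx1 were lost with limma on log2(TPM + 1). Lhx8 and Alx1 were lower in intra-CNS than in extracranial tumors, where 12.7% of all genes were lower, and the call of Alx1 was lost without 29048, 43990A, 29050A, R26P98 or R26P87, with the mouse name scheme as covariate, with limma and with 43990A counted as intracranial extra-CNS.

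The genes most like the members across the 16 tumors were ranked by Pearson's r of log2(TPM + 1), as a description. The ranking covered 17215 other genes (17216 for Pou1f1) with at least 10 counts in 3 or more tumors. Tumors of the same site share many genes, so r is not a measure of a link between 2 genes. Prl (r = 0.97) and Pomc (r = 0.93) were nearest to Gh, followed by Kcnj15, Gm17745, Mroh2a, Prok2, Prg4, Gm32688, Tspan8 and 5830411N06Rik (r = 0.80 to 0.91). Without 43989C and R26P170, r with Gh was 0.91 for Prl and 0.09 for Pomc. The likeness of Pomc thus rested on those 2 tumors, and that of Prl did not rest on them alone. In the tumors left, Prl had 220 counts in 29050A, 28 in R26P115 and at most 8 in any other. Kcnj15 was 9.74 TPM in 43989C and 28.1 TPM in R26P170, and r fell to -0.03 without them. Prok2, a secreted prokineticin, was 14.2 and 9.23 TPM. Pou1f1 was most like Serpina3m, Reg3g, Dusp1, Fxyd3 and Tead4 (r = 0.85 to 0.89), though at 8 counts or fewer its own values are coarse, and r with Gh was 0.81 (0.19 without those 2 tumors). Pitx1 was most like Ap1m2, Cdcp1, Prss22, Tnk1 and Nsmce3 (r = 0.92 to 0.94), with r of -0.33 to 0.22 once R26P123 and R26P170 were left out. Ap1m2, a subunit of an adaptor complex of epithelial cells, was 5.89 and 5.11 TPM in R26P123 and R26P170. Lhb was most like Pla2g5, Map3k21, Folr1, Cldn2 and Wdr86 (r = 0.97 to 0.98), among which Folr1 and Cldn2 are genes of choroid plexus. Without R26P115 and 29048 these values were 0.41 to 0.63.

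Genes of 10 other tissues and of epithelium were summed in the 2 hormone-high tumors and compared with the other 4 intracranial extra-CNS tumors. In 43989C, skeletal muscle genes were above the other 4 (80.1 TPM against 4.08 to 39.6), while epithelium (133 against 409 to 3311) and salivary gland genes (5.03 against 5.23 to 51.3) were below them. In R26P170, meninges (61.8 TPM against 335 to 2859), bone and cartilage (1.78 against 2.15 to 89.6), skeletal muscle (3.30) and epithelium genes (182) were below the other 4, although Krt5 and Krt14 of the epithelium list were above them. Salivary gland genes in R26P170, meninges and bone and cartilage genes in 43989C, and genes of neurons, sensory ganglia, oligodendrocytes, choroid plexus, pineal gland and olfactory epithelium in both were within the range of the other 4. Their part in the hormone levels was not tested. Of the markers that define pituitary cell types, the 2 tumors held the hormone genes of somatotrophs and lactotrophs with Pou1f1 at 3 and 8 counts, and that of corticotrophs with Tbx19 at 0.182 TPM or less. The 2 tumors carry names of different schemes, so the high hormone levels were present in both, in 1 of 4 numbered and 1 of 2 R26P mice of the group. They also differed in age, 106 and 170 days, and in the day of tamoxifen, E8 and E6. The mouse of 43989C was female, and no sex is given for R26P170.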

How the data were processed

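Tumors were grouped by the tumor location given in the labels. One tumor, from mouse 43990A, is labelled nose but listed as intracranial in a table of the study; it was analysed by its label. The authors deposited raw counts per gene and TPM of polyA RNA-seq libraries (TruSeq Stranded). Reads were mapped to mm10 with STAR 2.5.3a per the submitters' processing notes, which also name Trim Galore, FastQC and Picard; the methods of the study name STAR for counting too, and the annotation is not given in the sources used here. The deposited TPM sum to 1000000 per tumor and were used for levels and ratios, without imputation. Replicates are tumors of different mice, and their number limits precision.

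Counts were tested with edgeR 4.0.16 (R 4.3.3; TMM, quasi-likelihood F-test, no covariate) in 3 comparisons of 2 groups each, over genes with any count in the tumors compared. Calls needed a Benjamini-Hochberg adjusted p under 0.05 over all genes tested and an absolute log2 fold change above 1. Other fits used DESeq2 1.42.0, its size factors, filterByExpr, limma 3.58.1 on log2(TPM + 1), the name scheme as covariate, all 16 tumors together, 43990A as intracranial extra-CNS, and each tumor left out. On simulated counts with 200 changed genes, the edgeR test recovered 63.5% to 73.0% of 8-fold and 31.0% to 38.5% of 4-fold changes in the 3 comparisons. The changed genes were drawn only from genes above a minimum mean count. No member reached that minimum in intra-CNS against extracranial tumors, so the recovery does not apply to the members there. Positions come from GENCODE release 21 for mouse and promoter windows from RefSeq. Pseudocount on the log scale was 1, the floor 3 counts, and Wilson intervals 95%.

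The members, gene lists, motifs and named genes were chosen with earlier results of these data known, and the likeness of Lhb, the epithelium list and the split by mouse name after the values here were seen. Genes named were the 9 members, list genes past the threshold (up to 3 in each direction, with more where a count is spelled out), the highest gene of a list, the genes most like Gh, Pitx1 and Pou1f1, and genes overlapping a member; further list genes were named after their values were seen, for their level in tumors with high hormone or factor mRNA. Coding sequence and protein were not analysed here, and some lineage factors are not reported here.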

Additional observations from a re-analysis of the deposited data

Results flagged for a closer look

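Within a group, 10 values stood far from the nearest other tumor, measured as the gap over the group's whole range on the log2(TPM + 1) scale. The rule marks about 1 in 20 groups by chance where values are normally distributed, which groups made up mostly of 0 counts are not. Of the 30 groups of values looked at, those with 0 counts in every tumor could not be marked. These were Prl in extracranial tumors and Fshb in intra-CNS and extracranial tumors. The rate is not read against these values, since the members were chosen on their levels in the intracranial extra-CNS tumors. The values are a description with no test. Of the 10 flags, 7 are of values above 3 counts. Lhb stood apart at 88.0 TPM in R26P115 and at 4.84 TPM in 29048, and Cga at 21.0 TPM in R26P170. Pitx1 stood apart at 10.7 TPM in R26P170 and at 11.8 TPM in R26P123. Pou1f1 in R26P123, at 0.123 TPM, rests on 4 counts. Prl stood apart at 9.60 TPM (220 counts) in the intra-CNS tumor of 29050A. The other 3 are of 1 or 2 counts: Cga at 0.233 TPM in 38594A, and Cga at 0.103 TPM and Tshb at 0.220 TPM in R26P123. Gh, Prl and Pomc in the intracranial extra-CNS tumors were not flagged, since each has 2 high tumors and not 1.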

How the results depend on the processing

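The count of genes past the threshold between intracranial extra-CNS and extracranial tumors was 1 (Ttc39aos1), 490 with DESeq2, 0 with all 16 tumors in one fit, and 0 in numbered mice alone and in R26P mice alone; the cause was not tested. Leaving out 1 tumor gave 0 to 3. Between intracranial extra-CNS and intra-CNS tumors it was 4919, 3947 to 6187 on leaving out 1 tumor, and 0 in R26P mice alone (2 against 2). Between intra-CNS and extracranial tumors it was 5624, 4627 to 5949 on leaving out 1 tumor, 3680 in numbered mice alone and 0 in R26P mice alone (2 against 1, the lone tumor assumed to vary like the others). Both splits by name, added after seeing the data, use fewer tumors. No member was called in intra-CNS against extracranial tumors under any alternative, but the sign of 4 changed: Cga to -1.52 without 38594A (range on leaving out 1 tumor -1.52 to 2.02) and -3.08 in R26P mice alone, Lhb to -1.02 without 29048 (-1.02 to 2.23), Pitx1 to 1.02 (-5.04 to 1.02) and Pou1f1 to 0.21 (-1.68 to 0.21) without R26P123, and Pitx1 to 1.13 and Pou1f1 to 0.72 in numbered mice alone. In R26P mice alone, Chgb (0.016) and Tac2 (1.23) changed sign between intracranial extra-CNS and intra-CNS tumors, and Prlr (-1.10) and Alx1 (0.16) between intra-CNS and extracranial tumors. Over the alternatives of single genes, 1123 values were marked as unchanged. For tested values this means the same direction and call. For members given without a test it means a move within the spread between tumors, whatever the sign. For the number of tumors above the floor it means a change within a set factor. Past these last 2 limits, 101 values of members moved. A further 119 values lost the call with the same direction (a value without an adjusted p is not counted), and the 11 above changed sign. Among the values given without a test, a further 11 changed sign: Lhb against intra-CNS tumors, 4.47, to -0.46 without R26P115 and -1.88 in numbered mice alone, Lhb against extracranial tumors, 5.87, to -0.19 in numbered mice alone, and Pitx1 against extracranial tumors, -0.21, in 8 settings, up to 5.18 without R26P123. The median ratio of hormones to factors in intracranial extra-CNS tumors, 33.2, was 32.5 to 33.9 on leaving out 1 tumor, 15.0 in counts scaled to the library total, 31.9 without Lhb and 657 over Pou1f1 alone, whose counts are 1 to 8. With a floor of 10 counts in place of 3, 30 of the values per gene and tumor stayed above it, not 52. By Spearman's rho, 1 of the 10 genes most like Gh (Prl) was among the 10 nearest, and none of the 5 most like Pou1f1, Pitx1 or Lhb was among their 5 nearest. No paired analysis was possible because every tumor is from another mouse, with no replicate number shared between groups in the labels. Depth limits Pou1f1, Fshb, Tshb and Cga, which are at or near the floor in most tumors.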
